A study of Mus musculus with 9 samples.

Results

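The 33 genes described here encode the plasma factors, receptors and inhibitors that form and dissolve blood clots, and they were taken by gene symbol from a table of 55253 genes measured in mouse liver. All 33 were found in the table and all 33 passed the filter on low values. The livers came from 9 male C57Bl/6J mice. In the treated group of 5 mice, feeding began at the age of 10 weeks and combined a Western diet with sweetened water containing 10% alcohol for 23 weeks; this group is called WD+alcohol. The 4 control mice ate chow and drank tap water, and their titles also give 23 weeks; an age at the start is not stated for them. Diet, alcohol and sweetener were given together, so only their joint effect can be read, in males of 1 inbred strain. Library totals ran from 3635860 reads (WD+alcohol 1) to 6643645 reads (WD+alcohol 4), and 1 read was worth 0.152 to 0.270 CPM, the authors' TMM-scaled read counts relative to library size.

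Clotting can start when tissue factor meets factor VII, or by contact activation on a surface. There factor XII and plasma prekallikrein activate one another, with high-molecular-weight kininogen as cofactor, and activated factor XII activates factor XI. Both routes end in a common path in which factor Xa with factor Va makes thrombin, thrombin turns fibrinogen into fibrin, and factor XIII cross-links it. Antithrombin and the protein C system hold thrombin in check, and plasmin, made from plasminogen, dissolves fibrin. Hepatocytes secrete most of these proteins, whereas von Willebrand factor, factor VIII, thrombomodulin and tissue factor pathway inhibitor come largely from endothelium, and the A chain of factor XIII from macrophages and megakaryocytes.

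The comparison asked how the combined feeding changed the hepatic transcripts of this system. Of the 33 genes, 2 fell and 0 rose at an adjusted p under 0.05 (limma-trend, Benjamini-Hochberg over all genes). Both are contact-phase proteases, F11 (factor XI) and Klkb1 (plasma prekallikrein). Over all 14759 genes tested, 338 were called (2.29%), 238 of them higher (1.61%) and 100 lower (0.678%). Transcripts of thrombin, fibrinogen, factors V, IX and X, plasminogen and both plasminogen activators were not called. In liver RNA, fewer cells of a type and less RNA per cell cannot be told apart.

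F11 encodes factor XI, the protease that activates factor IX in the amplification loop. It read 15.5, 20.0, 17.2 and 15.7 CPM in controls 1 to 4 and 5.12, 3.97, 6.76, 8.18 and 5.00 CPM in WD+alcohol 1 to 5. All 5 treated values lay below the lowest control, with no overlap. The mean was 17.1 ± 2.05 CPM (SD, n = 4) in controls and 5.81 ± 1.66 CPM (SD, n = 5) with WD+alcohol, a 2.94-fold lower level. On the log2(CPM + 1) scale the difference was -1.44 ± 0.18 (SE; 95% interval -1.82 to -1.05; adjusted p = 7.02e-04, limma-trend). F11 was counted with 19 to 99 reads a library. It was called in all 20 alternative analyses, with adjusted p from 4.01e-10 to 0.0225.

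Klkb1 encodes plasma prekallikrein, the zymogen of plasma kallikrein, which releases bradykinin from kininogen and feeds back on factor XII. Its values were 219, 265, 181 and 199 CPM in controls 1 to 4 and 121, 68.6, 136, 140.0 and 93.7 CPM in WD+alcohol 1 to 5. Again no treated library reached the lowest control. The Klkb1 mean was 216 ± 35.9 CPM (SD, n = 4) in controls and 112.0 ± 30.4 CPM (SD, n = 5) with WD+alcohol, a 1.93-fold lower level, with a log2 fold change of -0.97 ± 0.18 (SE; 95% interval -1.37 to -0.58; adjusted p = 0.0123, limma-trend). The call of Klkb1 ended with the robust variance model, a setting that called 2.34% of all genes (adjusted p = 0.0790), and over all alternatives its adjusted p ran from 7.92e-05 to 0.162.

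F11 and Klkb1 are paralogs that lie next to each other on mouse chromosome 8. In GENCODE M21 transcripts, 0 of 451 windows of 50 bases in the last 500 bases of F11 occurred in Klkb1. The reverse count was also 0 of 451. Neither end thus shares an exact 50-base window with the other gene, but how near matches were handled in alignment is not known. Because they fell together, the 250 bases before each start are shown, from RefSeq (GRCm38.p6, both on the minus strand). The authors aligned to another build, GRCm39, so these coordinates are those of the RefSeq table and not of the reads. Capitals mark any match to 5 motifs, both strands: the HNF1 half-site GTTAAT, the HNF4 motif CAAAGTCCA, the C/EBP motif TTGCNNAA, the interleukin-6 response element CTGGGAA and the STAT motif TTCNNNGAA. The F11 window is chr8:45262032-45262281 and the Klkb1 window is chr8:45294836-45295085.
F11: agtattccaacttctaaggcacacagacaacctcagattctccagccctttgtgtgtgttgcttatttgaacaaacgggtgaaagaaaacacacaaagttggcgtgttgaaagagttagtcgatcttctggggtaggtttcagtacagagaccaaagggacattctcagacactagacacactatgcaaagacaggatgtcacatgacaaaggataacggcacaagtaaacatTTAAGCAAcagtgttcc
Klkb1: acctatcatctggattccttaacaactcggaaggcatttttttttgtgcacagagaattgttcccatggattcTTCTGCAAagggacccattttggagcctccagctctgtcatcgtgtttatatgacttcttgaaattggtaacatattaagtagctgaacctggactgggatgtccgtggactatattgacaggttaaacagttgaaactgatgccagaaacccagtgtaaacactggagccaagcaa
Each window held 1 match, and both were matches to the C/EBP motif, on the opposite strand, as TTAAGCAA at -17 to -10 in F11 and TTCTGCAA at -177 to -170 in Klkb1. The same motif occurred in 7 of the 26 members with a promoter entry (F11, F9, Fga, Fgb, Hrg, Klkb1 and Kng2). It occurred in 9.56% of 32851 promoter windows of that length. A member counted if any of its entries matched, whereas the percentage is of single windows, so these shares differ in unit. A match of letters describes the sequence and is not a measured binding site.

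The other contact genes were not called. F12, the gene of the protease that starts contact activation, read 237, 407, 275 and 322 CPM in controls and 263, 174, 273, 256 and 263 CPM with WD+alcohol, and these ranges overlapped. Its log2 fold change was -0.32 (95% interval -0.66 to 0.01; adjusted p = 0.431). The kininogen genes supply the cofactor and the source of bradykinin. With WD+alcohol the mean of Kng1 was 682 ± 125 CPM (SD, n = 5), and in controls 813 ± 155 CPM (SD, n = 4). Kng2 stood at 112 ± 5.18 against 107 ± 9.52 CPM. Kng1 and Kng2 are uncertain as separate genes, since up to 32.6% of the 50-base windows in the last 500 bases of a transcript of either gene occurred unchanged in the other. Within each library, where scaling has no effect, the ratio of Kng1 to Klkb1 was 3.18 to 4.35 in controls and 5.56 to 7.61 with WD+alcohol. The ratio of F9, the substrate of factor XIa, to F11 was 7.99 to 11.4 in controls and 26.8 to 36.3 with WD+alcohol. Neither pair of ranges overlapped, and these ratios were chosen after the values had been seen.

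**Figure D1:**
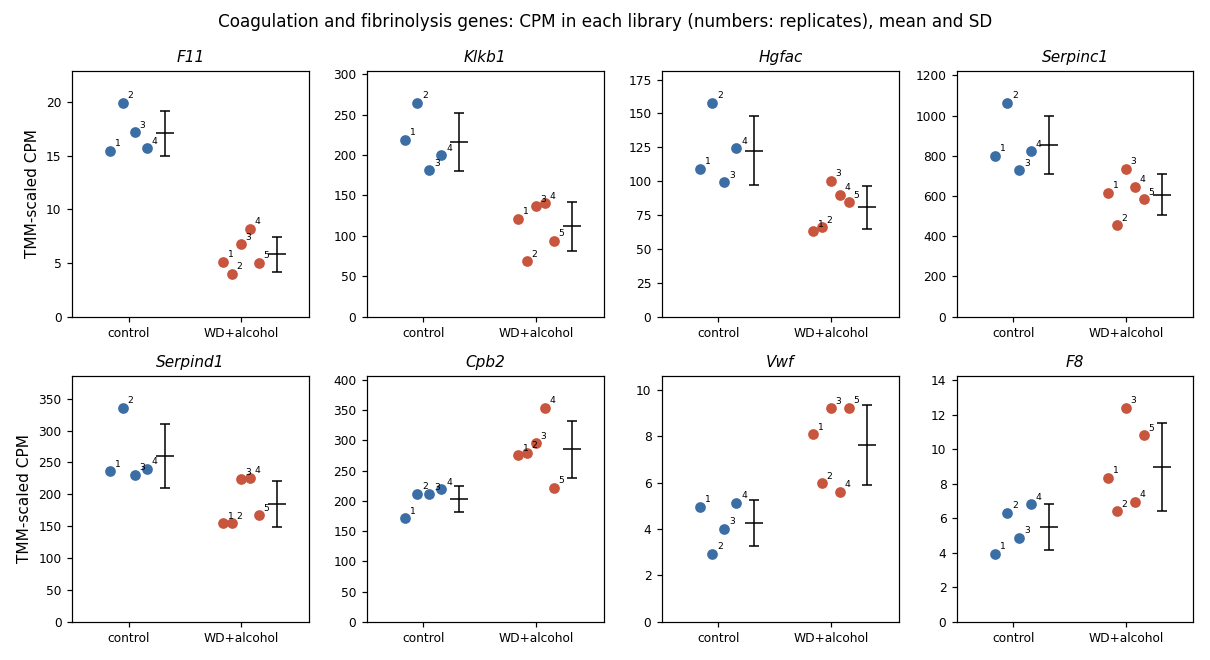
TMM-scaled CPM (y axis, from 0) of 8 genes in each control (blue) and WD+alcohol (red) library; digits are replicate numbers, and the bar to the right of each group is the mean with its SD. F11 and Klkb1 separate completely between groups, at 15.5 to 20.0 CPM in controls and 3.97 to 8.18 CPM with WD+alcohol for F11, and 181 to 265 and 68.6 to 140.0 CPM for Klkb1.

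Tissue factor, F3, which starts clotting, was low in whole liver at 6.69 ± 1.03 CPM (SD, n = 4) in controls and 6.16 ± 2.77 CPM (SD, n = 5) with WD+alcohol. F7, its protease partner with a short plasma half-life, averaged 75.4 ± 20.4 CPM in controls and 55.2 ± 25.1 CPM with WD+alcohol, with a log2 fold change of -0.51 (95% interval -1.07 to 0.04; adjusted p = 0.455). The treated mice differed widely for F7: WD+alcohol 1, 2 and 5 stood at 36.9 to 39.8 CPM, below every control, while WD+alcohol 3 and 4 stood at 68.5 and 93.5 CPM, within the control range of 59.1 to 104 CPM. F9, the gene of factor IX, deficient in haemophilia B, read 142, 228, 137 and 171 CPM in controls and 180, 137, 200 and 219 CPM in WD+alcohol 1 to 4, with 182 CPM in WD+alcohol 5. These values overlapped throughout, and the log2 fold change was 0.12 (95% interval -0.21 to 0.45; adjusted p = 0.822).

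F8 encodes factor VIII, the cofactor of factor IXa, and Vwf encodes the protein that carries it in plasma and tethers platelets. F8 read 3.95, 6.30, 4.87 and 6.82 CPM in controls and 8.36, 6.42, 12.4, 6.97 and 10.8 CPM with WD+alcohol, overlapping only through WD+alcohol 2. Its log2 fold change was 0.61 ± 0.21 (SE; 95% interval 0.16 to 1.06; adjusted p = 0.195). Vwf read 4.94, 2.94, 4.00 and 5.12 CPM in controls and 8.09, 5.96, 9.2, 5.61 and 9.21 CPM with WD+alcohol. All 5 treated libraries were above all controls for Vwf, but the difference of 0.71 ± 0.20 (SE; 95% interval 0.29 to 1.14) was not called (adjusted p = 0.0881). Counts were small, 24 to 66 reads for F8 and 14 to 49 reads for Vwf in a library. Among 12 markers of liver sinusoidal endothelium 1, Fcgr2b, rose and 0 fell (6 had an unadjusted p under 0.05), and their summed level was 217 to 300 CPM in controls (266 ± 36.1, SD, n = 4) and 261 to 339 CPM with WD+alcohol (309 ± 30.2, SD, n = 5). Whether the endothelial markers have a part in the values of F8 and Vwf was not tested.

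The common pathway genes were not called in any direction. F2, prothrombin, read 584, 783, 636 and 677 CPM in controls and 612, 441, 739, 709 and 572 CPM with WD+alcohol, with a log2 fold change of -0.14 (95% interval -0.44 to 0.16). F5, the cofactor factor V, read 424, 596, 442 and 430.3 CPM in controls and 454, 344, 504, 443 and 414 CPM with WD+alcohol, with -0.13 (95% interval -0.39 to 0.13). For both genes, the highest control was control 2 and the lowest treated library was WD+alcohol 2. F10, the protease factor X, had the smallest p of the common pathway. Its values were 144, 217, 138 and 160.1 CPM in controls and 127, 95.6, 144, 156 and 124 CPM with WD+alcohol, with a log2 fold change of -0.34 (95% interval -0.66 to -0.02; adjusted p = 0.357). F13a1, the catalytic chain of factor XIII, stood at 3.30, 3.99, 5.04 and 5.12 CPM in controls and at 3.50, 4.74, 3.94, 3.79 and 4.80 CPM with WD+alcohol, all treated values lying inside the control range. F13b, the carrier chain made by hepatocytes, averaged 96.2 ± 16.8 CPM in controls and 93.4 ± 17.9 CPM with WD+alcohol. Macrophage markers, by contrast, rose in 10 of 12 cases, and their summed level was 218 to 358 CPM in controls and 652 to 1070.0 CPM with WD+alcohol; any part of macrophage number in F13a1 was not tested.

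Fibrinogen is a dimer of α, β and γ chains, encoded by Fga, Fgb and Fgg, and is an acute phase protein induced by interleukin-6. These genes were the most abundant of the set, together 41.0% to 60.6% of the summed CPM of the 33 genes in controls and 45.7% to 64.2% with WD+alcohol. Fga read 869, 1211, 1958 and 2005 CPM in controls and 1359, 1767, 1097, 1861 and 838 CPM with WD+alcohol. Fgb read 2634, 4433, 5791 and 7390 CPM in controls and 4523, 4918, 3446, 5203 and 2754 CPM with WD+alcohol. Fgg read 1134, 1440.0, 2381 and 2528 CPM in controls and 2029, 2395, 1709, 2495 and 1191 CPM with WD+alcohol. Control 1 and WD+alcohol 5 were low for all 3 chains, so that mice of 1 group differed more from each other than the group means did. Log2 fold changes were -0.10 (95% interval -0.68 to 0.47) for Fga, -0.22 (-0.79 to 0.35) for Fgb and 0.10 (-0.44 to 0.64) for Fgg, with adjusted p from 0.815 to 0.931. These intervals are wide and do not show equal levels. Single libraries moved them: Fgb stood at -0.50 without control 1 and at -0.01 without control 4, and was called in neither case.

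The chains varied together from mouse to mouse. Over the 9 libraries, Pearson's r of log2(CPM + 1) was 0.954 for Fga with Fgb (exact permutation p = 5.51e-06, adjusted over 3 pairs 1.65e-05; Spearman's rho 0.983, exact permutation p = 4.96e-05, adjusted 1.49e-04). For Fga with Fgg, r was 0.965 (exact permutation p = 1.90e-04, adjusted 2.85e-04; rho 0.917, exact p = 0.00131, adjusted 0.00131). For Fgb with Fgg, r was 0.898 (exact permutation p = 8.05e-04, adjusted 8.05e-04; rho 0.933, exact p = 7.50e-04, adjusted 0.00112). Without control 1 and WD+alcohol 5, the 2 libraries farthest from the median, r was 0.883, 0.913 and 0.714 in the same order. Within the 4 controls r was 0.953 to 0.995, and within the 5 WD+alcohol libraries 0.982 to 0.986. The labels give no batch within which to repeat these values. No other pair of genes was set beside them, so whether the covariation is particular to the fibrinogen chains was not tested.

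The fibrinogen genes form a cluster on mouse chromosome 3, and because their transcripts varied together the 250 bases before each start are shown (RefSeq, GRCm38.p6), with the same motifs in capitals. Fga lies on the plus strand at chr3:83025903-83026152, Fgb on the minus strand at chr3:83049864-83050113 and Fgg on the plus strand at chr3:83007474-83007723.
Fga: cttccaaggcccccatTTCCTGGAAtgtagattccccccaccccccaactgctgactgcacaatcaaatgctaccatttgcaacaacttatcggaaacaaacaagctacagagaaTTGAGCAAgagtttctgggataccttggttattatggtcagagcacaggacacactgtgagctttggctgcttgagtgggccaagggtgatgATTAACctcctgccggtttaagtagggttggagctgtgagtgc
Fgb: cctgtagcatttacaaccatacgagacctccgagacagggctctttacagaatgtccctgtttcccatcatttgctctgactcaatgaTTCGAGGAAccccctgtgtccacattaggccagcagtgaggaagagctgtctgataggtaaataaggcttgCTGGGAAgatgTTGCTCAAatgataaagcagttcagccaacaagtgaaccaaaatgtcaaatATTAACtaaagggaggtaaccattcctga
Fgg: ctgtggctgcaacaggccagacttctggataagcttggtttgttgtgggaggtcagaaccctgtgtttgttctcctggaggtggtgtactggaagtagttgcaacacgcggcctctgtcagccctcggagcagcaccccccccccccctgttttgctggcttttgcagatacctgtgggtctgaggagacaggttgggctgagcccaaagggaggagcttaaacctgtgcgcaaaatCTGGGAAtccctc
Fga held 1 HNF1 half-site (-43 to -38), 1 C/EBP match (-135 to -128) and 1 STAT match (-234 to -226). Fgb held 1 HNF1 half-site (-29 to -24), 1 C/EBP match (-80 to -73), 1 interleukin-6 element (-91 to -85) and 1 STAT match (-162 to -154). Fgg held 1 interleukin-6 element (-13 to -7) and no other match. Of all promoter windows, 6.43% held the HNF1 half-site, 9.10% the interleukin-6 element, 7.02% the STAT motif and 0.384% the HNF4 motif. Among the 26 members with an entry, the counts were 6, 4, 5 and 0 genes. These counts are of genes with a match in any entry and the percentages are of single windows, so they differ in unit. The interleukin-6 and STAT motifs share bases and can overlap.

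**Figure D2:**
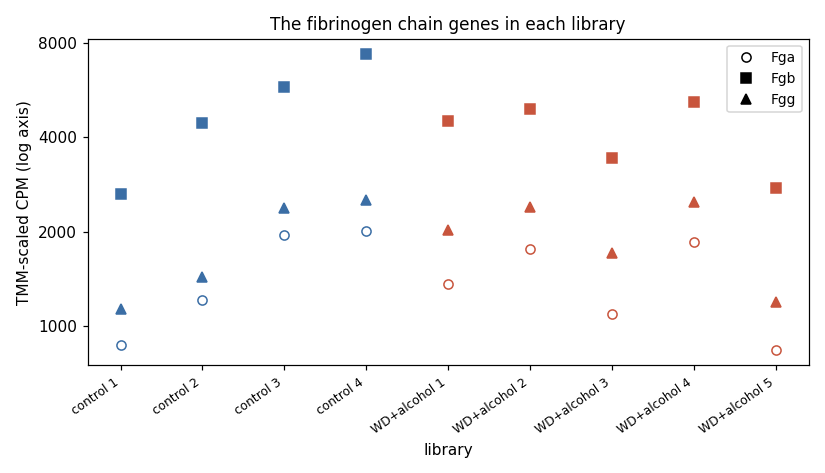
TMM-scaled CPM on a log axis (y) of Fga (open circles), Fgb (squares) and Fgg (triangles) in each library (x), controls in blue and WD+alcohol in red. The 3 genes keep their order in all 9 libraries, and control 1 and WD+alcohol 5 are the lowest of their groups for each of them.

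None of the anticoagulant genes was called, and their log2 fold changes went both ways. Serpinc1, antithrombin, the main plasma inhibitor of thrombin and factor Xa, read 800.3, 1063, 727 and 822 CPM in controls and 616, 454, 734, 645 and 583 CPM with WD+alcohol. The groups overlapped only through control 3 and WD+alcohol 3. The difference was -0.49 ± 0.14 (SE; 95% interval -0.79 to -0.20; adjusted p = 0.0821). Serpind1, heparin cofactor II, another thrombin inhibitor, read 236, 335, 231 and 240 CPM in controls and 154, 155, 223, 226 and 167 CPM with WD+alcohol. No treated library reached the controls for Serpind1, and the difference was -0.49 ± 0.14 (SE; 95% interval -0.80 to -0.19; adjusted p = 0.106). Both were called with DESeq2 (adjusted p = 0.0251 and 0.0465), and Serpinc1 also without WD+alcohol 3 (adjusted p = 0.0495).

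Proc, the zymogen of protein C, which inactivates factors Va and VIIIa, read 228, 267, 208 and 218 CPM in controls and 183, 133, 234, 231 and 163 CPM with WD+alcohol. The groups overlapped, with a log2 fold change of -0.31 (95% interval -0.63 to 0.01; adjusted p = 0.428). Its cofactor Pros1, protein S, averaged 57.5 ± 3.94 against 47.6 ± 9.57 CPM, a difference of 0.29 (95% interval 0.02 to 0.56; adjusted p = 0.367). Proz, protein Z, a cofactor in the inhibition of factor Xa, averaged 55.4 ± 12.3 against 60.4 ± 15.4 CPM. The inhibitors of the vessel wall were scarce in liver RNA, at 10 to 47 reads a library. Tfpi, which blocks tissue factor with factor VIIa, averaged 4.86 ± 1.92 against 2.77 ± 0.574 CPM, a difference of 0.58 (95% interval 0.02 to 1.14; adjusted p = 0.389). Thbd, thrombomodulin, which turns thrombin towards protein C, averaged 4.38 ± 1.71 against 3.52 ± 1.83 CPM. The ratio of F2 to Serpinc1, the substrate of thrombin formation against its inhibitor, was 0.729 to 0.875 in controls and 0.972 to 1.10 with WD+alcohol, without overlap. This ratio too was chosen after the values were seen and is given without a test.

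In the fibrinolytic system, Cpb2 had the smallest p. Cpb2 encodes the thrombin-activatable fibrinolysis inhibitor, a carboxypeptidase that trims the lysines to which plasminogen binds on fibrin. It read 171, 211, 211 and 219 CPM in controls and 276, 280, 295, 354 and 221 CPM with WD+alcohol, all treated libraries lying above the controls. The mean was 285 ± 47.3 against 203 ± 21.6 CPM, and the difference of 0.48 ± 0.12 (SE; 95% interval 0.22 to 0.73) was not called (adjusted p = 0.0542). Cpb2 was called in 6 of 20 alternatives, among them DESeq2 (adjusted p = 0.00857), all libraries rescaled to one total (0.0126), the robust model (0.0475) and without WD+alcohol 5 (0.0184). Its adjusted p ranged from 7.71e-04 to 0.165 over the alternatives.

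Plg, plasminogen, read 804, 1091, 779 and 966 CPM in controls and 630, 569, 796, 936 and 554 CPM with WD+alcohol. WD+alcohol 1, 2 and 5 were below all controls and WD+alcohol 3 and 4 were within their range. Its difference was -0.40 (95% interval -0.73 to -0.07; adjusted p = 0.270). Serpinf2, the plasmin inhibitor α2-antiplasmin, read 341, 429, 371 and 399 CPM in controls and 284, 254, 343, 356 and 237 CPM with WD+alcohol, with -0.40 (95% interval -0.66 to -0.14; adjusted p = 0.129). For Serpinf2 the overlap was of WD+alcohol 3 and 4 with control 1. Within libraries, the ratio of Cpb2 to Plg was 0.194 to 0.271 in controls and 0.371 to 0.491 with WD+alcohol, again without overlap and chosen after the values were seen.

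The plasminogen activators stood at 2.80 to 9.21 CPM and were not called. Plat, tissue plasminogen activator, read 7.09, 7.14, 9.21 and 5.87 CPM in controls and 8.36, 5.50, 7.13, 6.51 and 7.41 CPM with WD+alcohol. Plau, urokinase, read 2.80, 6.09, 5.91 and 4.93 CPM in controls and 7.28, 6.88, 6.57, 4.85 and 5.61 CPM with WD+alcohol, with a difference of 0.32 (95% interval -0.12 to 0.76). Both genes overlapped between the groups. Hrg, histidine-rich glycoprotein, which binds plasminogen and heparin, averaged 458 ± 156 against 382 ± 40.5 CPM, and its spread came from WD+alcohol 4 at 698 CPM. Vtn, vitronectin, an adhesive plasma glycoprotein, averaged 812 ± 160 against 927 ± 133 CPM (adjusted p = 0.627). Hgfac, a factor XII-like protease that activates hepatocyte growth factor, read 109, 158, 99.2 and 124 CPM in controls and 62.8, 66.0, 100.4, 89.7 and 84.5 CPM with WD+alcohol. Only WD+alcohol 3 overlapped, barely, with control 3. Hgfac differed by -0.60 ± 0.15 (SE; 95% interval -0.93 to -0.27; adjusted p = 0.0626), and was called with DESeq2 (0.0130), without control 3 (0.0489) and without WD+alcohol 3 (0.0374).

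**Figure D3:**
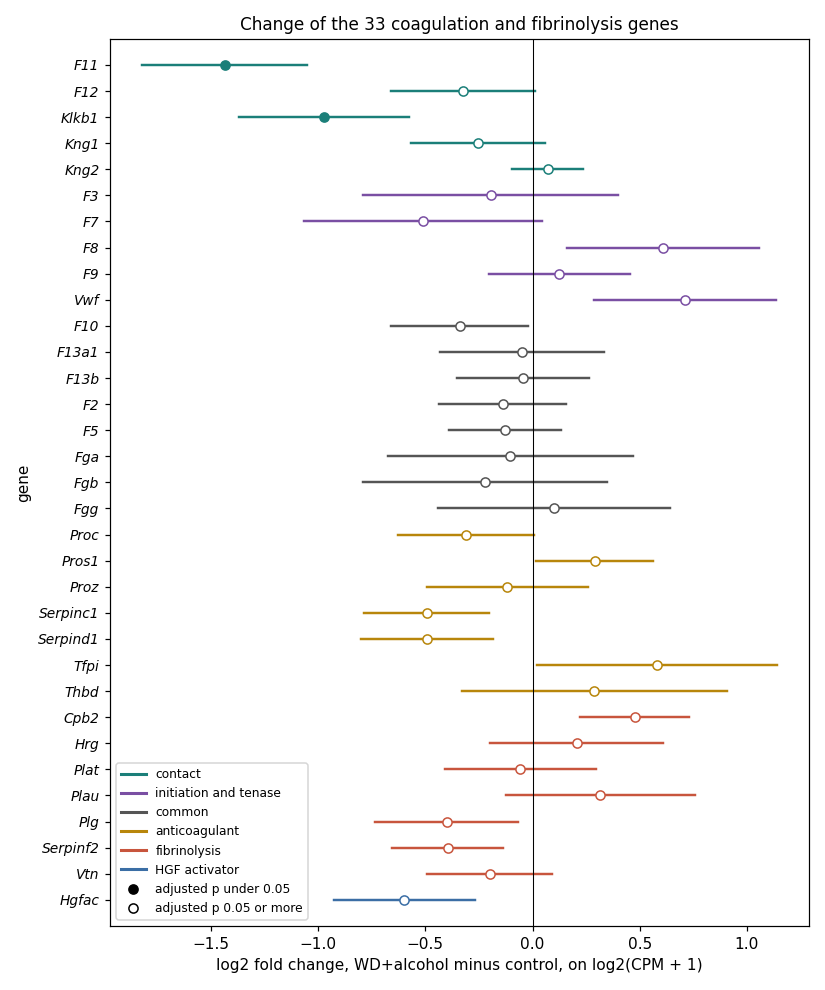
Log2 fold change (x axis, WD+alcohol minus control on log2(CPM + 1)) of each of the 33 genes (y axis) with its 95% interval, coloured by role; filled points passed an adjusted p under 0.05. F11 (-1.44) and Klkb1 (-0.97) are the filled points, while Vwf (0.71) and F8 (0.61) lie farthest to the right.

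As a group, 22 of the 33 genes had a negative log2 fold change (50.1% of all tested genes did), and the median was -0.13, beside -0.00077 over all genes. It was -0.08 without control 2 and -0.21 without WD+alcohol 4. At an unadjusted p under 0.05 there were 13 members, 5 higher and 8 lower, against 12.2% of all genes (7.41% higher, 4.77% lower). The groups did not overlap for 5 members, 2 higher (Vwf and Cpb2) and 3 lower (F11, Klkb1 and Serpind1). Among all genes the groups did not overlap for 5.34% (3.34% higher, 2.0% lower). By role, the median was -0.32 for the 5 contact genes, 0.12 for the 5 genes of initiation and of the factor VIII complex, -0.12 for the 8 common pathway genes, -0.12 for the 7 anticoagulants and -0.06 for the 7 fibrinolytic genes. Calls were 2, 0, 0, 0 and 0 in that order. The 25 genes made mainly by hepatocytes had a median of -0.22 (19 negative), and the 8 made mainly by other cells one of 0.30 (3 negative, 0 called). These medians are descriptions of lists and no test was made of their difference.

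Of 20 hepatocyte markers 17 had a negative log2 fold change, 2 called lower (Alb and Apoa1) and 1 called higher (Fbp1), and their summed level was 61263 to 86790.3 CPM in controls and 42222 to 61967 CPM with WD+alcohol. When the libraries were scaled on those 20 hepatocyte markers, the median of all genes moved to 0.28 and that of the 33 members to 0.18, or -0.10 relative to all genes (-0.13 in the main analysis). Under that scaling 11 members were negative and 8 were called, the same F11 and Klkb1 lower and Cpb2, F8, Hrg, Pros1, Tfpi and Vwf higher, while 8.27% of all genes were called (1147 higher, 77 lower). F11 stood at -1.16 and Klkb1 at -0.67 there, and the medians by role were -0.02 for contact, 0.43 for initiation and the factor VIII complex, 0.19 for the common pathway, 0.19 for anticoagulants and 0.21 for fibrinolysis. The median of the hepatocyte-made members was 0.09 there, or -0.19 relative to all genes, and that of the members made by other cells was 0.56, or 0.28 relative to all genes (0 of 8 negative). Per 1000 CPM of Alb, F11 was 0.455 to 0.580 in controls and 0.238 to 0.474 with WD+alcohol, and Klkb1 was 5.77 to 8.20 and 4.78 to 8.11, so that on this measure both genes overlapped between groups. DESeq2 called 6 members, 5 lower and 1 higher (3.69% of all genes), edgeR the same 2 as the main analysis (2.13%), and one total for all libraries 3 (3.18%). Without WD+alcohol 3 the number called was 4, all lower (F11, Klkb1, Hgfac and Serpinc1), beside 2.09% of all genes. Control 2 was the highest control for 17 of the 25 hepatocyte-made members, and WD+alcohol 2 the lowest treated library for 15 of them, and the part of these libraries in the members not called was not tested beyond leaving each out.

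**Figure D4:**
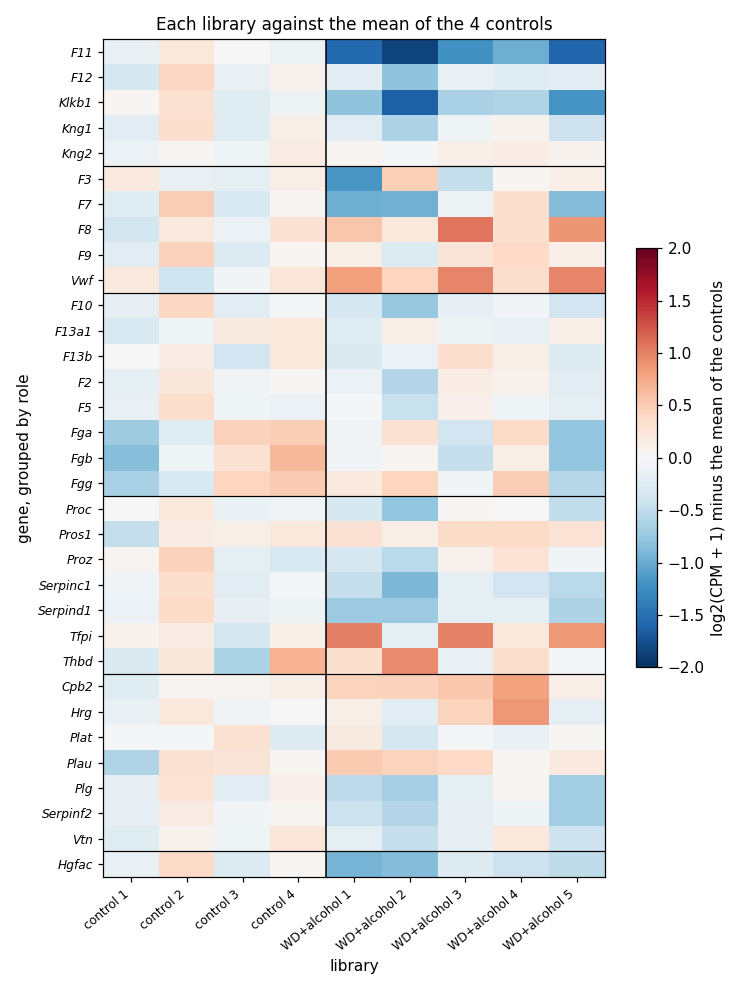
Log2(CPM + 1) of each gene (rows, grouped by role) in each library (columns) minus the mean of the 4 controls; blue is lower and red is higher. F11 and Klkb1 are blue in all 5 WD+alcohol columns, WD+alcohol 2 is the lowest treated column for 15 of the 25 hepatocyte-made genes, and the fibrinogen rows vary together within both groups.

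Other genes of clotting and fibrinolysis came from lists of 39 genes, of which 29 were tested, 4 rose and 0 fell. Among all genes tested, 1.61% were called higher and 0.678% lower. With the replicate number as a block, Gas6, Plgrkt and S100a10 were not called (limma-trend, adjusted p = 0.117, 0.117 and 0.104). Fgl1 and Gas6 are plasma proteins. Fgl1, a fibrinogen-like protein secreted by hepatocytes, read 101, 212, 223 and 320.4 CPM in controls and 434, 484, 382, 817 and 374 CPM with WD+alcohol, without overlap. It differed by 1.26 ± 0.28 (SE; adjusted p = 0.0324), but its call ended without any of 6 libraries (control 1, 2 or 3 or WD+alcohol 1, 2 or 5; 0.0553 to 0.0642), with edgeR (0.0546), with no filter (0.0636) and with the robust model (0.206). Gas6, a vitamin K-dependent ligand of TAM receptors and a relative of protein S, read 12.4, 15.8, 13.6 and 15.0 CPM in controls and 36.9, 24.0, 28.5, 19.2 and 38.2 CPM with WD+alcohol. That is 2.08-fold higher in the means, with a difference of 0.96 ± 0.18 (SE; adjusted p = 0.0104).

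Of 11 receptors and surface cofactors 6 were tested and 2 rose, both of them plasminogen receptors. Plgrkt, a membrane receptor for plasminogen, read 17.8, 13.9, 15.1 and 15.2 CPM in controls and 24.3, 21.7, 23.1, 23.6 and 22.6 CPM with WD+alcohol (difference 0.55 ± 0.10, SE; adjusted p = 0.0108). S100a10, which with annexin A2 binds plasminogen and its tissue activator, read 167, 157, 172 and 150.1 CPM in controls and 228, 242, 230.5, 189 and 276 CPM with WD+alcohol (0.52 ± 0.10, SE; adjusted p = 0.0115). Neither gene overlapped between groups. Its partner Anxa2 averaged 232 ± 22.8 against 202 ± 24.2 CPM and was not called (adjusted p = 0.432). The thrombin receptor F2r (114 against 116 CPM in the means) was not called either, and the kinin receptors Bdkrb1 and Bdkrb2 had 0 reads and at most 1 read in a library.

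Of the inhibitor and clearance list, 11 of 14 genes were tested and 0 were called; by an unadjusted p under 0.05 there were 3. The smallest p belonged to Serpine2, protease nexin 1, at 30.4 ± 4.82 against 40.9 ± 2.94 CPM (adjusted p = 0.0757; called with DESeq2), and to the scavenger receptor Stab2, at 22.8 ± 4.65 against 12.1 ± 6.77 CPM (adjusted p = 0.144). In the list of the vitamin K cycle and factor export, 5 of 5 genes were tested and 0 called, or 1 by an unadjusted p. Mcfd2, the export receptor subunit for factors V and VIII, averaged 79.9 ± 2.10 against 64.9 ± 6.72 CPM (adjusted p = 0.0726), and its partner Lman1 230 ± 14.8 against 253 ± 23.5 CPM (adjusted p = 0.546). The carboxylase Ggcx and the reductase Vkorc1, which keep vitamin K-dependent factors functional, had differences of 0.06 (95% interval -0.23 to 0.35) and -0.04 (-0.30 to 0.22).

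**Figure D5:**
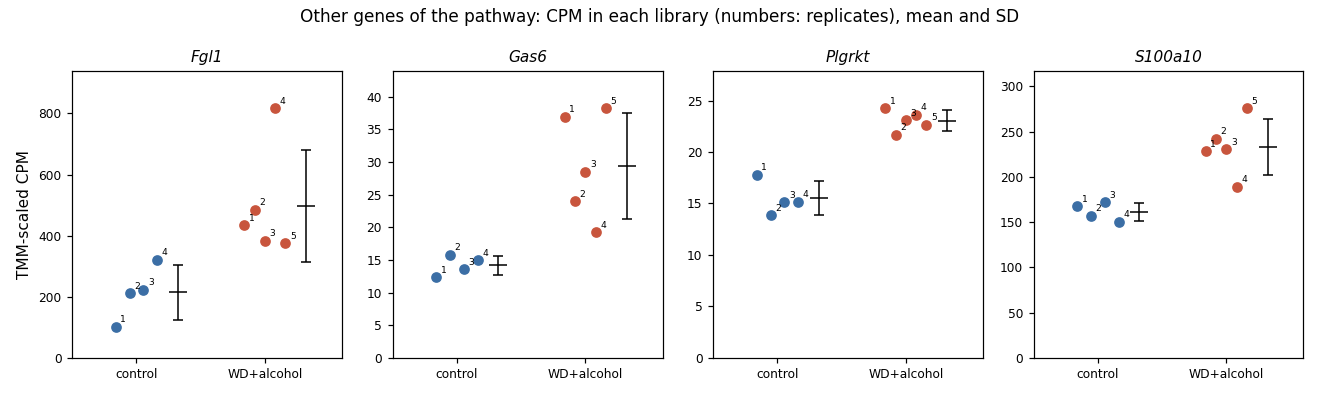
TMM-scaled CPM (y axis, from 0) of Fgl1, Gas6, Plgrkt and S100a10 in each control (blue) and WD+alcohol (red) library, with the mean and SD beside each group and replicate numbers at the points. None of the 4 genes overlaps between groups. Among all genes tested, the groups did not overlap for 5.34%.

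Other secreted hepatocyte proteins were set beside the coagulation genes. Of the 18 hepatocyte complement genes, 1 fell (C8b, at 48.3 ± 29.7 against 118 ± 26.6 CPM), 0 rose and the median log2 fold change was 0.03. Of 12 plasma carriers and apolipoproteins, 2 fell (Alb, adjusted p = 0.0491, and Apoa1, 0.0407, limma-trend), 0 rose and the median was -0.20. Alb, Apoa1, Apob, Ttr, Trf, Ahsg, Gc and Rbp4 of this list are also among the hepatocyte markers above, so the lists are not separate. The share called was 2 of 33 for coagulation genes, 1 of 18 for complement and 2 of 12 for carriers, beside 2.29% of all genes. Markers of other cells stood as follows. Of platelet and megakaryocyte markers 5 of 10 were tested and 1 rose (Pf4), with Tubb1 at 0 in every library and a summed level of 112 to 134 CPM in controls and 104 to 130 CPM with WD+alcohol. That sum was mostly Ppbp (61.8 ± 5.02 against 68.5 ± 5.77 CPM) and Itga2b (43.9 ± 5.90 against 48.3 ± 5.90 CPM), whereas Pf4 was 7.56 ± 2.38 against 2.23 ± 1.04 CPM. Which of these genes follows platelet content was not tested, and the sum is not read as a measure of it. Of 11 stellate markers 1 rose (Dcn), 9 were positive (median 0.33) and 4 had an unadjusted p under 0.05, all higher. Col1a1 (1972 against 2075 CPM) and Acta2 (966 against 1005 CPM) stood far above Lrat (6.04 against 4.77 CPM). Of 4 tested cholangiocyte markers and 5 tested erythroid markers 0 were called. By an unadjusted p under 0.05 there were 1 (higher) and 4 (3 higher, 1 lower). The source of the high, near-level Col1a1, Acta2 and Sox9 (101 against 104 CPM) was not tested. Of 2 tested adipocyte markers 1 rose (Cfd), with summed adipocyte levels of 13.2 to 19.3 CPM in controls and 23.4 to 149 CPM with WD+alcohol. Cfd alone (58.4 ± 50.9 against 1.45 ± 0.907 CPM) carried most of that difference; Lipe was 19.7 ± 2.96 against 14.4 ± 2.31 CPM, and Adipoq, Plin1, Lep, Retn and Adig each averaged at most 0.397 CPM.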

How the data were processed

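Liver RNA of 9 mice was made into 3′ mRNA libraries (Collibri kit), per the labels' protocols; such counts follow transcript ends and are not scaled by length. Per the submitters' processing notes, reads were handled with Trim Galore 0.6.0, cutadapt 1.18, STAR (no version listed), HTSeq 0.11.0, edgeR 3.28.1 and R 3.6.3 on GRCm39 (mm39). Overlapping genes and close paralogs are uncertain, because no source used here gives the strand or multimapping setting. Per the submitters' processing notes and the file, the authors deposited a signal: CPM scaled by TMM. All positive values (100%, relative tolerance 1e-06) divided evenly by the worth of 1 read in that library. Whole reads were thus recovered and gave depths and the count-based alternatives. A level of 0 reads allows up to 0.455 to 0.809 CPM (3 reads, counting error only).

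Groups came from titles, and library names tied columns to samples. Each library was taken as 1 mouse, as the numbers of mice in the series' design match; if they were not separate animals, p-values measure only the spread between libraries. No library repeats another: among 36 pairs the lowest chi-square per degree of freedom was 5.82. The main test was a two-sided limma-trend fit (limma 3.58.1 in R 4.3.3) to log2(CPM + 1). It covered 14759 genes whose mean reached 1 CPM, with Benjamini-Hochberg adjustment over all of them and a threshold of 0.05. Fold changes on this scale understate those of low genes. A "difference" is a log2 fold change on that scale, WD+alcohol minus control, and levels are written WD+alcohol first where 2 means are joined by "against", except where each is named. In all, 20 alternatives were tried, 9 of them leaving out 1 library, and among the others edgeR 4.0.16 and DESeq2 1.42.0. The script was tested on simulated counts.

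The members and lists were chosen with earlier results of these data known. A gene of the inhibitor list is not reported here. All 33 members are named; values by library are given for called members, a fixed list of members and the 2 of smallest p in each role, and for called genes of the other lists. Promoter entries of RefSeq matched 26 of the 33 members by symbol. Exact permutation tests used Python 3.11.15 with scipy 1.17.1, and figures matplotlib 3.10.9.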

Additional observations from a re-analysis of the deposited data

Results flagged for a closer look

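In 37 genes and 2 groups each (74 groups of values), a single library lay far from the others of its group 6 times, which chance alone does in about 5% of groups. Of the controls, F5 was 596 CPM in control 2 (others 424 to 442), Serpind1 335 CPM in control 2 (231 to 240), Cpb2 171 CPM in control 1 (211 to 219) and Tfpi 1.91 CPM in control 3 (2.97 to 3.15). Among treated mice, F12 was 174 CPM in WD+alcohol 2 (256 to 273) and Fgl1 was 817 CPM in WD+alcohol 4 (374 to 484). Each of these 6 values widens the distance between its group means. Without the library concerned, the log2 fold change was -0.01 for F5 (-0.13 with all libraries), -0.37 for Serpind1 (-0.49), 0.40 for Cpb2 (0.48), 0.46 for Tfpi (0.58), -0.21 for F12 (-0.32) and 1.07 for Fgl1 (1.26).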

How the results depend on the processing

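F11 kept its direction and its call in all 20 alternatives, and Klkb1 its direction in all 20 and its call in 18. The number of members called was 8 with scaling on hepatocyte markers (8.27% of all genes) and 6 with DESeq2 (3.69%). It was 2 to 4 when 1 library was left out (1.36% to 2.62% of all genes), beside 2 in the main analysis (2.29%). The members' median was 0.18 with scaling on hepatocyte markers, which moved the median of all genes to 0.28; relative to all genes it was -0.10, beside -0.13 in the main analysis. It was -0.21 to -0.08 when 1 library was left out. The number of other pathway genes called was 8 with scaling on hepatocyte markers and 3 to 5 when 1 library was left out, beside the same shares of all genes. It was 1 (Fgl1) with the replicate number as a block (0.759% of all genes).

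The labels do not say that replicate numbers pair the mice. Deviations of same-numbered libraries correlated at -0.0075, -0.31, -0.21 and -0.015, and 0 of 8 libraries correlated best with their own number. Such correlations cannot exclude a pairing in the design. WD+alcohol 5 has no control of its number, so the block also removes its weight, and the log2 fold changes with the block equal those without that library, F13b at 0.010 and Fga at 0.062 among them. Of all genes, 338 were called in the main analysis, 201 without WD+alcohol 5 and 112 with the block. Among members, F11 and Cpb2 were called with the block (adjusted p = 0.0225 and 0.0484) and Klkb1 was not (0.162); without WD+alcohol 5 all 3 were called.

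With scaling on hepatocyte markers, which shifts the median of all genes to 0.28, log2 fold changes turned positive by that construction and stayed below the shifted median: F2 0.17, F3 0.072, F5 0.18, F13a1 0.20, F13b 0.26, Kng1 0.056, Fga 0.21, Fgb 0.089, Plat 0.21, Proz 0.19 and Vtn 0.11. With one total F13b was 0.010, below the shifted median of all genes (0.049). Leaving out 1 library gave ranges that cross 0 for F3 (-0.36 to 0.044), F13a1 (-0.15 to 0.020), F13b (-0.17 to 0.028), Fga (-0.34 to 0.062), Fgg (-0.11 to 0.27), Plat (-0.14 to 0.046) and Proz (-0.22 to 0.037); the cause was not tested. None of these was called in any of these settings. At 9 to 66 reads a library, F3, F8, F13a1, Plat, Plau, Vwf, Tfpi and Thbd carry the largest counting error.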
